A study of Mus musculus with 7 samples.

Results

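The genes described here act in folding, quality control and stress signalling of the endoplasmic reticulum (ER). A list of 34 gene symbols was matched exactly to the platform's annotation, and 32 had at least 1 probe, of 16468 named genes and 22218 features on the arrays. The 2 others were Atf6, with no probe under that symbol, and Ero1lb, which the annotation carries under its newer symbol Ero1b and whose values are given apart. Liver RNA came from 3 mice carrying a Zfp90 transgene (1 female, 2 males) and from 4 wild-type littermates (1 female, 3 males). The label Cy5 marked the animal and Cy3 a common reference, a pool made from the livers of 4 wild-type males and females; dye swaps were used. The promoter and structure of the transgene, the strain and the age of the mice are not given in the sources used here. Every value below is a log2 ratio of an animal to that pool, or a difference between such ratios, so levels of different genes are not compared. In whole liver, a change in the share of a cell type and a change of RNA per cell cannot be told apart.

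The ER of hepatocytes folds the plasma proteins that the liver secretes. When unfolded proteins build up there, the membrane sensors IRE1 (encoded by Ern1), PERK (Eif2ak3) and ATF6 set off the unfolded protein response. IRE1 splices the mRNA of the transcription factor Xbp1, ATF6 is cut and enters the nucleus, and PERK phosphorylates a translation initiation factor, which lowers general translation and raises that of the transcription factor ATF4. ATF6 and XBP1 are known to raise chaperones, disulfide isomerases and the genes of ER-associated degradation (ERAD), which exports misfolded proteins to the proteasome. ATF4 is known to raise genes of amino acid supply and of recovery from the stress.

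ATF6 is known to bind the ER stress response element (ERSE), which is CCAAT and CCACG with 9 bases between them, and its shorter form ERSE-II (ATTGG and CCACG with 1 base between them). RefSeq promoter windows of assembly GRCm38.p6, from 250 bases before to 50 bases after the transcript start, were found for 29 of the 32 genes, all but Hyou1, Manf and Derl1. Both strands were searched for exact matches, so a site with any fixed letter changed was not counted. ERSE was found in 9 of the 29 windows (31%) and in 39 of all 32851 windows (0.119%). The sites are shown because their holders include the genes with the largest differences described below; capitals mark the fixed letters, and each site is written 5′ to 3′ on the gene's strand, where the reversed form CGTGG to ATTGG is the same element on the other strand.
Creld2: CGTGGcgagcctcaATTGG
Derl3: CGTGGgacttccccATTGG
Hspa5: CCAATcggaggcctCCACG
Dnajc3: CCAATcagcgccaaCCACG
Pdia6: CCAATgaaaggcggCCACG
Canx: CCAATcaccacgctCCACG
Hsp90b1 far site: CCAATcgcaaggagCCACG
Hsp90b1 near site: CGTGGtgaggcacgATTGG
Calr: CGTGGtcgaccctcATTGG
Syvn1: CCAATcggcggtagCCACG

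The 10 ERSE sites began between 44 (Syvn1) and 212 (Hsp90b1, far site) bases before the start. ERSE-II was found in 2 members, Herpud1 (52 to 42 bases before the start) and Dnajb11 (just after the start), and in 0.0365% of all windows. The core of the element bound by ATF4 with C/EBP factors, TGATGNAA, was found in Asns (23 to 16 bases before the start), Chac1 (193 to 186) and Herpud1 (112 to 105), and in 3.97% of all windows. The letters TGACGTGG, known from XBP1 binding, which hold the CCACG of ERSE on the other strand, were in 0 members and in 0.676% of windows. No 2 of these matches overlapped in a member. The 250 bases before the start follow for the genes with the largest differences and for the most studied ERSE promoter, at chr15:88819396-88819645 (Creld2), chr10:75893148-75893397 (Derl3) and chr2:34771840-34772089 (Hspa5), all on the plus strand, with the fixed ERSE letters in capitals. A match is a description of letters, not of binding.
Creld2: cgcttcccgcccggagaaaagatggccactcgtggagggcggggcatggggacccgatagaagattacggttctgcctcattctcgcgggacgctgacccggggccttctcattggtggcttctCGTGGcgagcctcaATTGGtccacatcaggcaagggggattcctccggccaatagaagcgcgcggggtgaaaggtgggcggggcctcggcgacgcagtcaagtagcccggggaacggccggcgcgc
Derl3: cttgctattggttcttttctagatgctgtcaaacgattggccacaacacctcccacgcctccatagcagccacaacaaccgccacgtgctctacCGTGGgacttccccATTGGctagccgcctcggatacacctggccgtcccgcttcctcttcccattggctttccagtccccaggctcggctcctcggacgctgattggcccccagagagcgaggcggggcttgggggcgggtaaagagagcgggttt
Hspa5: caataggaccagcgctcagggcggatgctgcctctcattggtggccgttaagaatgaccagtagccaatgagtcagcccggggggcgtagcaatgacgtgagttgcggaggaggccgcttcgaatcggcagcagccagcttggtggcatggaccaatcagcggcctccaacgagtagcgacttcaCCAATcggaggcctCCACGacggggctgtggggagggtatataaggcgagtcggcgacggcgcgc

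**Figure D1:**
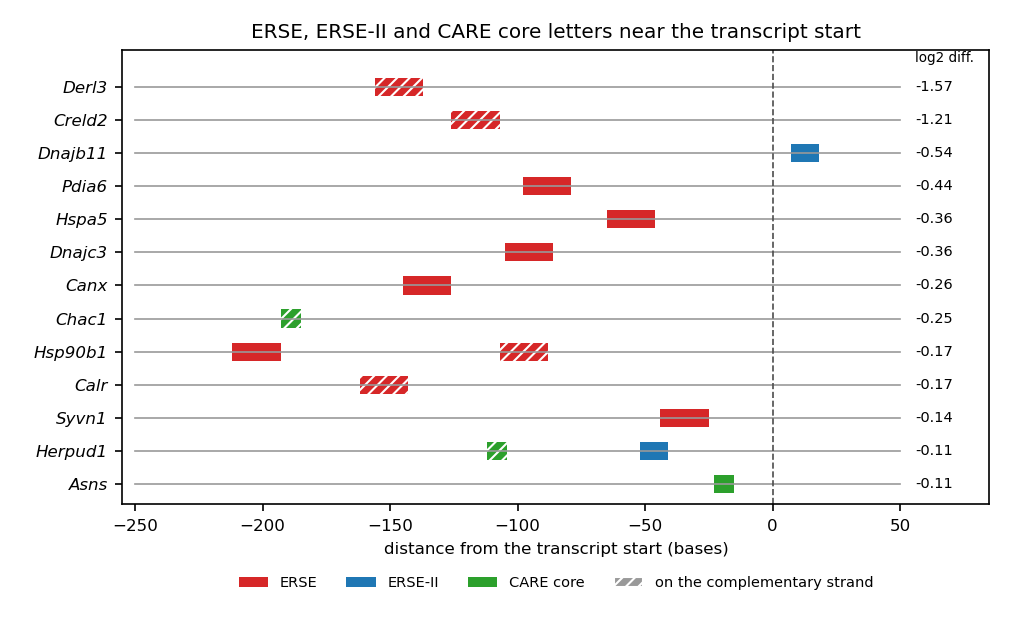
Positions of ERSE (red), ERSE-II (blue) and the CARE core (green) in the windows of the 13 genes that hold at least 1 of them, in bases from the transcript start (dashed line); hatched bars lie on the complementary strand. The number at the right is the log2 difference of transgenic minus wild type in the model with sex, from -1.57 (Derl3) to -0.11 (Asns).

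The direction of the ratios is not stated in the labels. The Y-linked gene Kdm5d lay between -3.22 and -2.54 on both female arrays and between 0.14 and 0.66 on the 5 male arrays, so a positive ratio was taken to mean more RNA in the animal than in the pool; with every sign turned, each difference below changes its sign and keeps its p. Of the pairs of arrays, 3 correlated below -0.3 over all probes, down to -0.497. Zfp90 itself read 0.34 to 0.58 in the transgenic animals and -0.29 to -0.11 in the wild-type males. It read 0.37 on the array labelled wild-type female, so that array goes against its label for this gene. The transgenic female was level with it, at 0.34, so Zfp90 did not set the 2 females apart. Whether a label or the sex of the animals lies behind this was not tested. The main results are therefore given over all 7 animals and for the 5 males, which leave both female arrays out. Wild-type male 3 also stood apart from the other wild-type males in these genes: it was the lowest of the 3 in 22 of the 32 members, and in 37.5% of all features.

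Most ER genes had a difference below 0, no single gene passed the test, and the animals' medians over the 32 genes overlapped between genotypes. These medians were -0.41, -0.13 and -0.036 in the transgenic female and males 1 and 2, against 0.16, -0.16 and 0.13 in wild-type males 2, 3 and 4 and -0.10 for the array labelled wild-type female. The difference of transgenic minus wild type, fitted with sex in limma, was below 0 in 26 of 32 members, against 51.8% of all features, with a median of -0.18 against -0.0054 over all features. After adjustment over all features, 0 members passed at 0.05, and so did 0% of the 22218 features (the smallest adjusted p of a member was 0.653). At an unadjusted p under 0.05 stood 7 members, all lower (Creld2, Atf4, Hspa5, Dnajc3, Selenos, Derl3 and Manf), against 6.91% of all features in either direction, 3.1% lower and 3.82% higher. In 4 members, Creld2, Atf4, Dnajc3 and Selenos, all transgenic animals lay below all wild-type animals, against 2.84% of features, and 0 members lay above, against 3.17%. In the males alone 26 of 32 members were again below 0, against 55.4% of features, with a median of -0.15; 0 members and 0.0315% of features passed. In the males 4 members (Hspa5, Creld2, Atf4 and Derl3) were at an unadjusted p under 0.05, all lower, against 6.96% of features, 3.04% lower and 3.92% higher. Both transgenic males lay below all 3 wild-type males in 8 members (Hspa5, Dnajc3, Creld2, Atf4, Asns, Sel1l, Derl3 and Selenos), against 11.4% of features, and above them in 1 (Hyou1), against 11.2%. For Sel1l the order of the males held for the mean of its 2 probes and not for each. Values below are listed in the order female, male 1, male 2 for transgenic animals and labelled female, males 2, 3 and 4 for wild type.

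**Figure D2:**
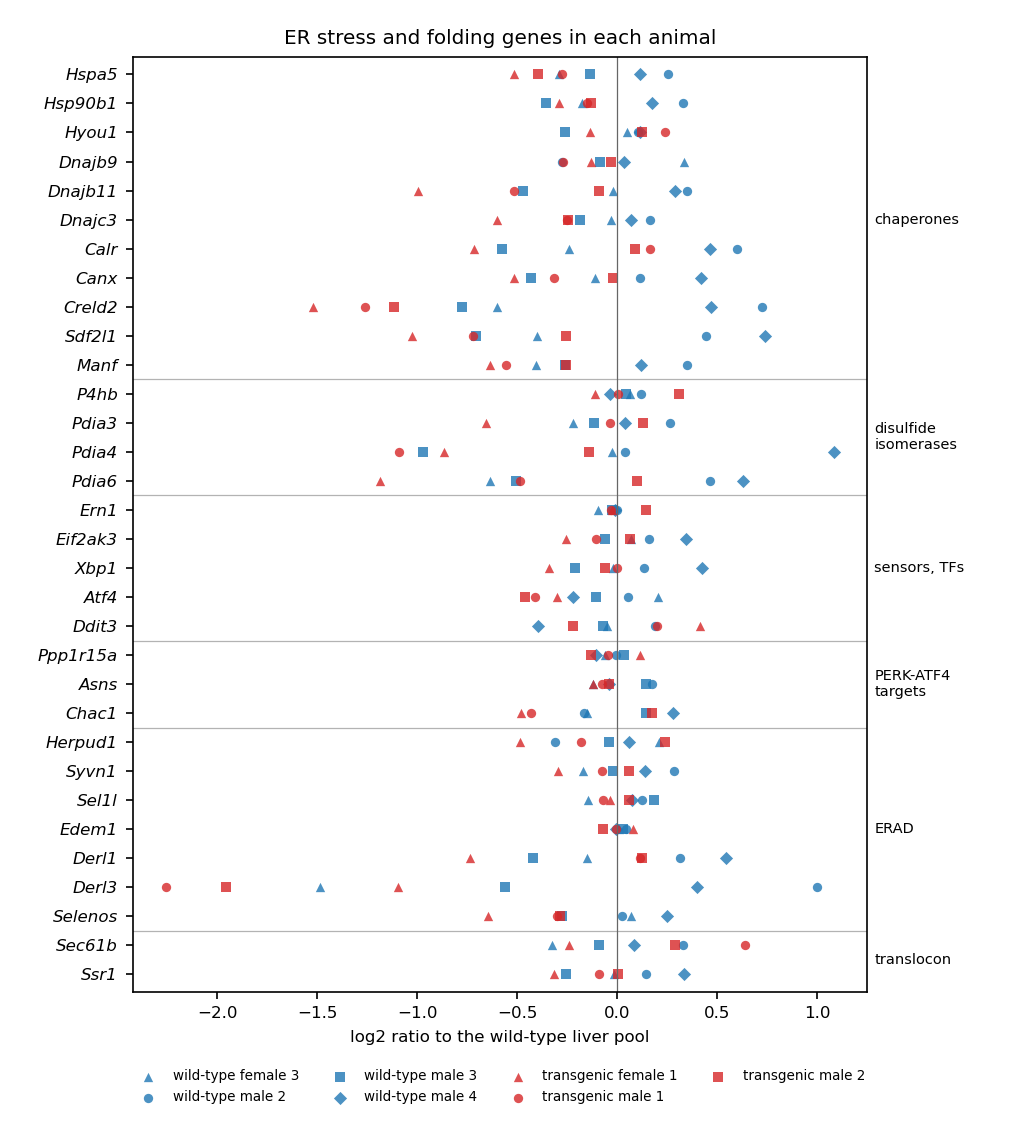
Log2 ratio to the pool of the 32 ER genes (rows, by role) in each of the 7 animals; blue marks are wild type, red marks transgenic, triangles females. Transgenic marks lie at the low end in Creld2 (-1.52 to -1.11), Atf4 and Selenos, and the wild-type marks of Pdia4 and Derl3 spread over the widest ranges (2.06 and 2.49).

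Chaperones and their partners had the lowest median difference of the roles. Of 11 members of this role, 10 were below 0, against 51.8% of all features, with a median difference of -0.36. The role held 4 of the 7 members at an unadjusted p under 0.05 in limma, all lower, against 3.1% of features. In the males 10 were below 0, against 55.4% of features, with a median of -0.27. There 2 chaperones, Hspa5 and Creld2, were lower at an unadjusted p under 0.05, against 3.04% of features. Creld2, a disulfide isomerase-like protein that is induced and secreted under ER stress, read -1.52, -1.26 and -1.11 in transgenic and -0.60, 0.72, -0.78 and 0.47 in wild-type animals. The genotypes did not overlap, but wild-type male 3 and the array labelled wild-type female lay nearer to the transgenic animals than wild-type males 2 and 4 did. The group means were -1.30 ± 0.21 (SD, n = 3) against -0.047 ± 0.75 (SD, n = 4), and the fitted difference was -1.21 ± 0.34 (SE), 2.31-fold lower, with a 95% interval of -1.99 to -0.42 and an adjusted p of 0.667. In the males it was -1.33 ± 0.42 (SE).

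Hspa5 (BiP), the main Hsp70 chaperone of the ER lumen, which holds the stress sensors inactive, read -0.52, -0.28 and -0.40 in transgenic and -0.29, 0.25, -0.13 and 0.11 in wild-type animals. All transgenic animals lay below the 3 wild-type males, and the array labelled wild-type female fell among them. The difference was -0.36 ± 0.12 (SE), 1.28-fold lower, adjusted p = 0.704, and -0.42 ± 0.14 (SE) in the males. Dnajc3, a cochaperone of BiP that also inhibits PERK, read -0.60, -0.25 and -0.25 against -0.03, 0.17, -0.19 and 0.071, with no overlap. Its difference was -0.36 ± 0.12 (SE), adjusted p = 0.709, with -0.27 ± 0.13 (SE) in the males and -0.57 between the females. Manf, a small secreted protein that binds BiP, read -0.64, -0.55 and -0.26 against -0.41, 0.35, -0.26 and 0.12, and wild-type male 3 was about level with transgenic male 2. Its difference was -0.40 ± 0.16 (SE), adjusted p = 0.721, with -0.47 ± 0.20 (SE) in the males and -0.23 between the females.

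None of the other 7 chaperones was at an unadjusted p under 0.05. Dnajb11, another BiP cochaperone, differed by -0.54 ± 0.24 (SE), with the transgenic female at -0.99 and transgenic male 2 at -0.09. Sdf2l1, a partner of ER Hsp40 proteins, differed by -0.64 ± 0.33 (SE), and its wild-type males ran from -0.71 (male 3) to 0.74 (male 4), a spread wider than the difference. The lectin chaperones of glycoprotein folding differed by -0.26 (Canx) and -0.17 (Calr). Hsp90b1 (GRP94), the Hsp90 of the ER, differed by -0.17, and Dnajb9, a BiP cochaperone that restrains IRE1, by -0.17. Hyou1 (GRP170), a nucleotide exchange factor of BiP, was the single chaperone above 0, at 0.083 ± 0.13 (SE), with the 2 transgenic males above all 3 wild-type males and a difference of -0.19 between the females. For each of these 7 genes the 95% interval included 0.

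Disulfide isomerases form and rearrange the disulfide bonds of secreted proteins. Of 4 measured, 3 were below 0, with a median of -0.29, and none was at an unadjusted p under 0.05. Pdia4 had the largest difference, -0.72 ± 0.46 (SE), and read -0.87, -1.09 and -0.14 in transgenic and -0.028, 0.039, -0.97 and 1.08 in wild-type animals. Its wild-type males spanned 2.06 log2 units, more than any other member's, and transgenic male 2 lay above wild-type male 3. Pdia6 read -1.18, -0.49 and 0.10 against -0.64, 0.46, -0.50 and 0.63 (-0.44 ± 0.28 (SE)), with the same wild-type males high and low. Pdia3 (ERp57), which works with calnexin and calreticulin, read -0.65, -0.034 and 0.13 against -0.22, 0.27, -0.12 and 0.041, so the transgenic female alone lay below all wild-type animals. Its difference was -0.14 ± 0.13 (SE), and -0.016 in the males. P4hb, the classical protein disulfide isomerase, read -0.11, 0.003 and 0.31 against 0.063, 0.12, 0.045 and -0.036 and differed by 0.029 with an interval of -0.24 to 0.30. Ero1b, an oxidase that recharges these isomerases and is the 34-symbol list's Ero1lb, read 0.23, 0.15 and -0.20 against -0.073, 0.042, 0.32 and -0.21, a difference of 0.035 ± 0.16 (SE).

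**Figure D3:**
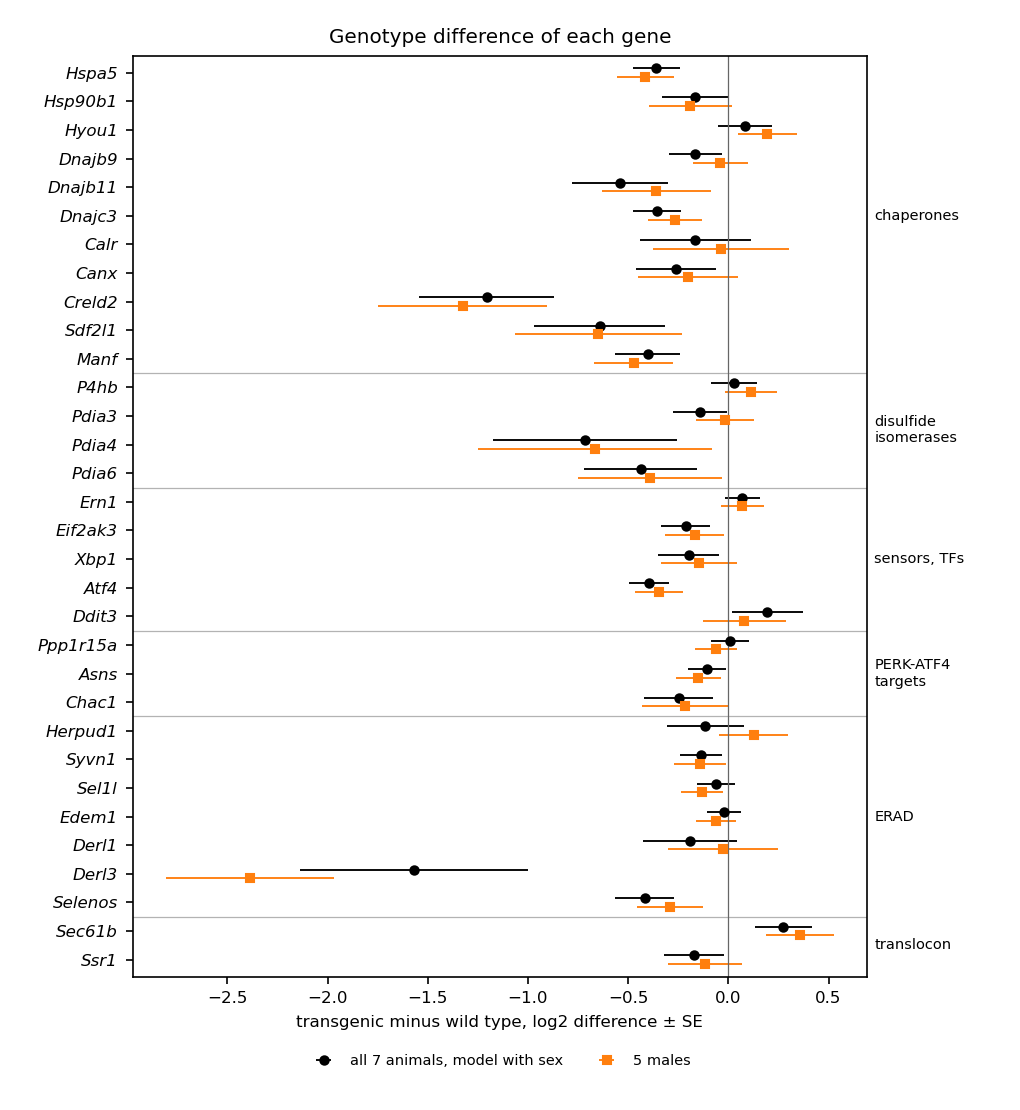
Fitted difference of transgenic minus wild type for each of the 32 genes, as log2 difference ± SE, over all 7 animals with sex in the model (black) and in the 5 males (orange). Derl3 and Creld2 lie farthest below 0 in both fits, at -1.57 and -1.21 over all animals and -2.39 and -1.33 in the males.

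Among the sensors and transcription factors only Atf4 mRNA stood at an unadjusted p under 0.05. Atf4 read -0.30, -0.41 and -0.46 in transgenic and 0.21, 0.055, -0.10 and -0.22 in wild-type animals, with no overlap. The group means were -0.39 ± 0.082 (SD, n = 3) against -0.015 ± 0.19 (SD, n = 4). Its difference of -0.39 ± 0.10 (SE), 1.31-fold lower, had the smallest p of the members and an adjusted p of 0.653; the males gave -0.35 ± 0.12 (SE). Wild-type male 3 lay within the other wild-type animals in this gene. ATF4 is controlled mainly at translation, which these arrays do not measure. Ddit3 (CHOP), the death-linked factor downstream of ATF4, read 0.42, 0.20 and -0.22 against -0.052, 0.19, -0.072 and -0.39, a difference of 0.19 ± 0.18 (SE) with overlapping genotypes. Xbp1 differed by -0.20 ± 0.15 (SE) and read -0.34, 0.0013 and -0.06 against -0.018, 0.14, -0.21 and 0.43; its splicing was not measured. Eif2ak3 (PERK) read -0.25, -0.11 and 0.066 against 0.072, 0.16, -0.061 and 0.34. It differed by -0.21 ± 0.12 (SE) and Ern1 (IRE1) by 0.069 ± 0.087 (SE), and the genotypes overlapped in both.

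The targets of PERK and ATF4 were 3 members, with 2 below 0 and a median of -0.11, and 0 at an unadjusted p under 0.05. Asns, which makes asparagine, read -0.12, -0.076 and -0.042 against -0.12, 0.17, 0.14 and -0.04 (-0.11 ± 0.10 (SE)). Chac1, which degrades glutathione, read -0.48, -0.43 and 0.17 against -0.15, -0.17, 0.14 and 0.28 (-0.25 ± 0.17 (SE)), with transgenic male 2 among the wild-type males. Ppp1r15a (GADD34), which brings the phosphatase that ends PERK signalling, read 0.11, -0.045 and -0.13 against -0.061, -0.007, 0.033 and -0.10 (0.0073 ± 0.095 (SE)). The intervals were -0.33 to 0.12, -0.65 to 0.15 and -0.21 to 0.23, so differences inside these bounds were not resolved with 7 animals. Whether this role differed from the chaperones was not tested.

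ERAD genes were all below 0 over the 7 animals (7 of 7, median -0.14), against 51.8% of all features. The differences of Edem1, Sel1l, Herpud1 and Derl1 were smaller than their SE. At an unadjusted p under 0.05 in limma stood 2 ERAD genes, both lower, against 3.1% of features. In the males 6 of 7 were below 0, against 55.4% of features. Derl3, an ER membrane protein of the retrotranslocation machinery, had the largest difference of all members. It read -1.09, -2.26 and -1.96 in transgenic and -1.49, 1.0, -0.56 and 0.40 in wild-type animals, so the array labelled wild-type female lay below the transgenic female, while both transgenic males lay far below all 3 wild-type males. Its difference was -1.57 ± 0.57 (SE), 2.97-fold lower, adjusted p = 0.718. In the males it was -2.39 ± 0.42 (SE), 5.23-fold lower, adjusted p = 0.225, whereas the transgenic female was 0.39 above the array labelled wild-type female. The genotype by sex interaction of Derl3, 2.78 ± 0.77 (SE), did not pass (adjusted p = 0.405, with 0.072% of features called).

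Selenos, a selenoprotein that links the derlins to the cytosolic ATPase VCP, read -0.65, -0.30 and -0.28 against 0.072, 0.025, -0.27 and 0.25. The genotypes did not overlap, but wild-type male 3 was nearly level with both transgenic males. Its difference was -0.42 ± 0.15 (SE), adjusted p = 0.718, with -0.29 ± 0.16 (SE) in the males and -0.72 between the females. In the ubiquitin ligase complex of ERAD the genotypes overlapped. Syvn1 (HRD1), the ligase, read -0.29, -0.074 and 0.058 against -0.17, 0.29, -0.02 and 0.14 and differed by -0.14 ± 0.10 (SE). The difference was -0.061 ± 0.10 (SE) for Sel1l, its cofactor. Edem1, a lectin that hands over misfolded glycoproteins, differed by -0.022 ± 0.084 (SE), and its wild-type animals spanned only 0.054. Herpud1, a short-lived ERAD factor and a known stress marker, differed by -0.11 ± 0.19 (SE), with 0.13 in the males and -0.69 between the females. Derl1, of the same family as Derl3, read -0.74, 0.11 and 0.12 against -0.15, 0.31, -0.42 and 0.55 and differed by -0.19 ± 0.24 (SE); wild-type males 2 and 4 were its high animals.

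The translocon lets new proteins into the ER. Sec61b, a subunit of its channel, read -0.24, 0.64 and 0.29 against -0.32, 0.33, -0.091 and 0.083 and was the member with the largest positive difference, 0.28 ± 0.14 (SE), adjusted p = 0.746. Its females were the low animals of both genotypes. Ssr1, a subunit of the translocon-associated complex, read -0.32, -0.09 and 0.0068 against -0.014, 0.15, -0.26 and 0.34 and differed by -0.17 ± 0.15 (SE).

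**Figure D4:**
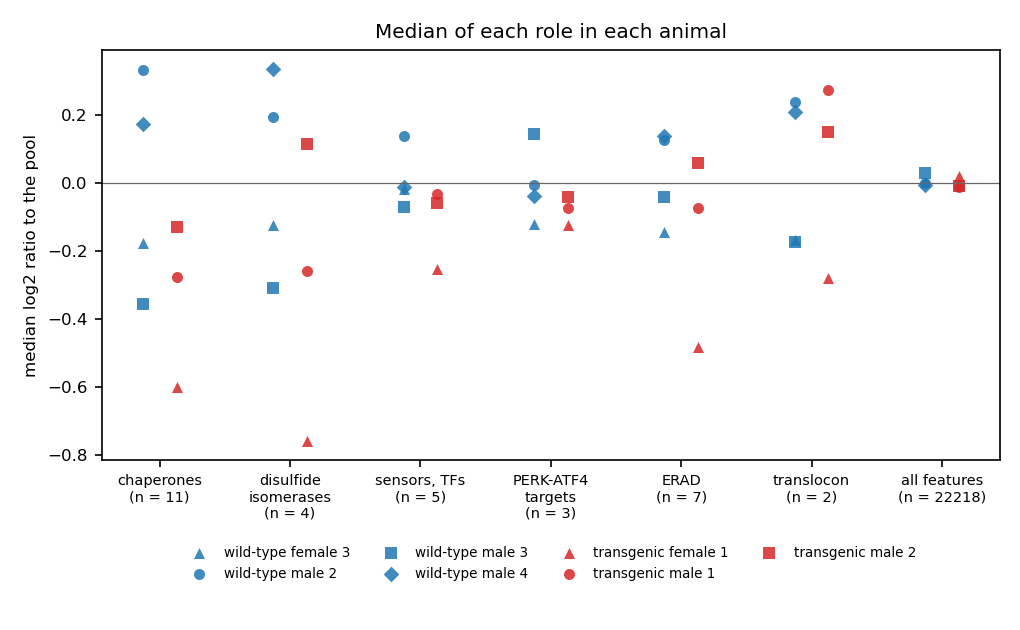
Median log2 ratio to the pool of each role (and of all 22218 features) in each animal; blue is wild type, red transgenic, triangles females. Chaperone medians lie at 0.33 and 0.17 in wild-type males 2 and 4, at -0.36 in wild-type male 3 and at -0.60 in the transgenic female, while medians of all features stay between -0.01 and 0.03.

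The medians by animal show which livers were high or low in each role. The chaperone medians were -0.60, -0.28 and -0.13 in transgenic and -0.18, 0.33, -0.36 and 0.17 in wild-type animals, and those of the disulfide isomerases -0.76, -0.26 and 0.11 and -0.12, 0.19, -0.31 and 0.33. In both roles wild-type males 2 and 4 were the high animals, and wild-type male 3 lay at or below both transgenic males. ERAD medians were -0.48, -0.074 and 0.058 and -0.14, 0.13, -0.041 and 0.14, and those of the PERK-ATF4 targets -0.12, -0.076 and -0.042 and -0.12, -0.007, 0.14 and -0.04, which span less than those of the chaperones. Within the wild-type animals the members spread more than other features, with a median range of 0.57 against 0.36 over all features. The chaperones had a median range of 0.75. Edem1 and Ern1 had the narrowest, 0.054 and 0.10.

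In the males, members passed when wild-type male 3 was left out. Without it, with 2 males of each genotype, Creld2 (-1.78, adjusted p = 0.0449) and Derl3 (-2.81, adjusted p = 0.0495) passed in limma, among 10 features called. The median of the members was then -0.30. That animal was the lowest wild-type male in both genes (-0.78 and -0.56). Leaving it out therefore widens both differences and narrows the wild-type range, so these passes are not separate support. Over both sexes, leaving it out gave a median of -0.29 and 0 members called, with adjusted p of 0.181 for Creld2, 0.183 for Atf4 and 0.183 for Hspa5. Leaving out any other animal kept the members' median over both sexes between -0.27 and -0.14.

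The females were compared with 1 animal of each genotype and the array whose label is in doubt, so they give a value and no test of their own. The transgenic female lay below the array labelled wild-type female in 25 of 32 members, against 47.7% of all features, with a median of -0.32. In all 11 chaperones it was lower, by 0.97 in Dnajb11 and 0.92 in Creld2. The exceptions above 0 included Derl3 (0.39), Ddit3 (0.47) and Ppp1r15a (0.18). The transgenic female was the lowest of all 7 animals in 20 of 32 members, against 19.5% of features. Of the interaction of genotype and sex, 0 members were called in limma, with 2 at an unadjusted p under 0.05 (Derl3 and Herpud1) against 8.42% of features, 4.49% lower and 3.93% higher; 20 members were below 0, against 47.6% of features. With 1 female of each genotype its error rests on the males alone, so an interaction that did not pass is not shown to be absent.

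**Figure D5:**
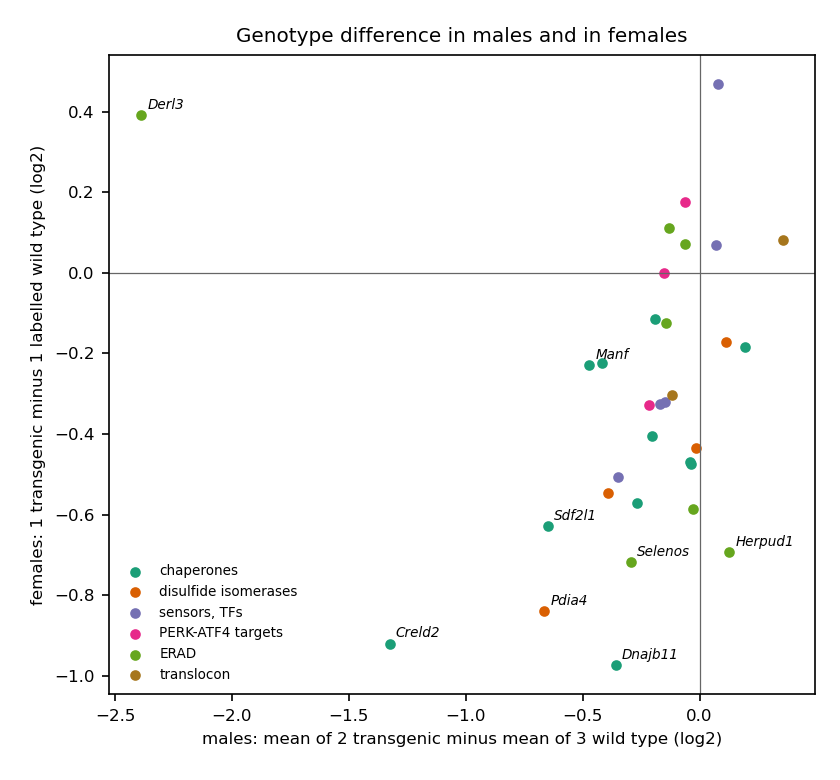
Log2 difference of transgenic minus wild type in the males (x, 2 against 3 animals) and between the 2 females (y, 1 against 1) for the 32 genes, coloured by role. Most genes lie below 0 on both axes, Creld2 at -1.33 and -0.92; Derl3 lies at -2.39 in the males and 0.39 between the females.

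The sexes were compared in the same fit. The fitted difference of females minus males was below 0 in 27 of 32 members, against 47.7% of features, with a median of -0.19; 0 members passed, against 0.351% of features. At an unadjusted p under 0.05 stood 4 members, all lower in females, against 9.23% of features, 5.57% lower and 3.65% higher. They were Sec61b (-0.56 ± 0.16 SE), Pdia3 (-0.48 ± 0.15 SE), Pdia6 (-0.91 ± 0.31 SE) and Syvn1 (-0.30 ± 0.11 SE). Calr passed in this comparison only when wild-type male 3 was left out (-0.81, adjusted p = 0.025). That animal was the lowest male in Calr (-0.57), so leaving it out widens this difference. The comparison rests on 2 females, 1 of them the array whose label is in doubt.

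The genes whose promoters hold ERSE, printed above, were all below 0, against 51.8% of features over all animals and 55.4% in the males. They numbered 9 of 9 over the 7 animals (median -0.36) and 9 of 9 in the males (median -0.27). Of the 20 members with a promoter window in which ERSE was not found, 15 were below 0, with medians of -0.15 and -0.12. Calr, Canx, Creld2, Dnajc3, Hsp90b1 and Hspa5 hold ERSE and belong to the chaperone role, whose median was also -0.36. Whether the lower values went with the motif or with the role was not tested. The holders read -0.60, -0.28 and -0.13 in transgenic and -0.24, 0.33, -0.43 and 0.40 in wild-type animals as medians. At an unadjusted p under 0.05 in limma stood 4 of them (Creld2, Derl3, Hspa5 and Dnajc3), all lower. Over all features, 3.1% were lower and 3.82% higher at that p. On the arrays 13 other named genes hold the same letters, Ero1b among them, and of these 6 were below 0 with a median of 0 (-0.077 in the males). Those at an unadjusted p under 0.05 were 2, both higher and named after their values were seen: Acnat2 (0.61 ± 0.22 SE) and Zfp57 (0.55 ± 0.19 SE). Among the members with ERSE-II or the CARE core, Herpud1 and Asns differed by -0.11 and -0.11, Chac1 by -0.25 and Dnajb11 by -0.54.

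Wider lists of the same pathways had medians nearer 0 than the members' -0.18. In the males their medians were -0.059 to -0.045, beside the members' -0.15. Of all features, 51.8% were below 0. Of 35 other ER folding enzymes and chaperones 24 were below 0, with a median of -0.095. In that list Tmx4 read -0.61, -0.31 and -0.20 against -0.19, 0.043, -0.038 and 0.24 (-0.36 ± 0.10 (SE)), Creld1, the paralogue of Creld2, differed by -0.30 ± 0.13 (SE) and Txndc11, a thioredoxin-domain protein, by 0.28 ± 0.091 (SE). Of 29 other genes for translocation, signal peptide removal and glycosylation 21 were below 0 (median -0.10). Among them were the signal recognition particle receptor Srpr (-0.38 ± 0.13 (SE), and -0.22 in the males) and the signal peptidase subunit Spcs1 (-0.32 ± 0.10 (SE), and -0.25 in the males). Sec61g, another channel subunit, was at 0.42 ± 0.13 (SE), on the side of Sec61b, and at 0.26 in the males. It read -0.70 on the array labelled wild-type female. Of 22 other ERAD genes 13 were below 0 (median -0.028), with Herpud2 at -0.39 ± 0.11 (SE), Ube2j2 at -0.27 ± 0.13 (SE) and Os9 at 0.20 ± 0.10 (SE). Of 38 other regulators and ATF4 targets 24 were below 0 (median -0.034). Eif2ak2, the interferon-induced kinase PKR, which acts on the same initiation factor as PERK, was higher in all 3 transgenic animals (0.43, 0.32 and 0.47 against -0.37, -0.039, 0.14 and -0.20, 0.54 ± 0.13 (SE)). Creb3l2, a membrane-bound factor like ATF6, differed by 0.27 ± 0.13 (SE) and the amino acid transporter Slc7a5 by -0.19 ± 0.09 (SE). None of these passed (0% of features did).

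Cytosolic heat shock chaperones, which sit outside the ER, were below 0 in 14 of 17 cases over all animals (median -0.13). In the males 10 of 17 were below 0 (median -0.029). The shares over all features were 51.8% and 55.4%. The medians of these heat shock chaperones were -0.42, -0.13 and -0.034 in transgenic and -0.085, 0.028, -0.05 and 0.028 in wild-type animals. The transgenic female was thus the low animal there too. Hsp90aa1 differed by -0.47 ± 0.12 (SE), Hsph1 by -0.30 ± 0.13 (SE) and Hspb1 by -0.43 ± 0.19 (SE).

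Markers of other cell types and states were measured beside these genes. Of all features, 51.8% were below 0 over all animals and 55.4% in the males. At an unadjusted p under 0.05 in limma, 3.1% were lower and 3.82% higher over all animals. The shares in the males were 3.04% and 3.92%. Plasma cells and exocrine pancreas are rich in ER. Of 12 plasma and B cell markers 6 were below 0, with medians of 0.12, -0.0055 and -0.079 in transgenic and 0.13, -0.041, 0.073 and -0.15 in wild-type animals. Jchain, which joins secreted antibodies, differed by -0.46 ± 0.17 (SE). Of 16 pancreas markers 3 were below 0, with medians of 0.0027 to 0.12 (transgenic) and -0.079 to 0.071 (wild type). Hepatocyte markers had medians from -0.24 to 0.002 and -0.09 to 0.0023, with 9 of 20 below 0. At an unadjusted p under 0.05 in limma, 4 of these markers were lower and 2 higher over all animals. In the males 1 was lower and 4 were higher, so single hepatocyte markers differed in both directions. Macrophage markers were above 0 in 16 of 18 cases over all animals (median 0.37, with 4 higher at an unadjusted p under 0.05) and in 16 of 18 in the males (median 0.71, with 11 higher). They lay at 0.41, 0.38 and 0.18 in transgenic and 0.79, -0.59, -0.65 and -0.13 in wild-type animals, and thus lay high on the array labelled wild-type female. Lists for T and NK cells, neutrophils, endothelial, stellate, bile duct and red blood cells had median differences between 0.0014 and 0.22. Immediate early genes were below 0 in 10 of 15 cases (median -0.15, with 2 lower at an unadjusted p under 0.05), beside the members' -0.18. In the males 9 of 15 were below 0 (median -0.066, with 1 lower). For females minus males 13 of them were above 0, with 6 higher at an unadjusted p under 0.05 in limma, against 3.65% of features. Medians of the immediate early genes by animal ran from -0.25 to 0.038 and from -0.11 to 0.26. Those of clock genes ran from -0.06 to 0.061 and from -0.06 to -0.0073. The part of these markers in the ER gene differences was not tested, and ratios to a liver pool cannot show whether a marker is absent.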

How the data were processed

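Each of 7 livers was 1 array of a 2-colour design, and precision is limited by that number. The labels give Cy5 for the animal and Cy3 for the pool, but not the direction of the ratio. The authors deposited log10 ratios for 23574 probes. That the scale is log10 was read from the values, which end at exactly -2 and 2. How swaps were combined, and the background correction and normalization, are not given in the sources used here. Medians of the arrays ran from -0.01 to 0.03 on the log2 scale. Signal over background is unknown.

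Ratios were multiplied by 3.32 to log2, and probes of a gene averaged (29 members had 1 probe and 3 had 2). Differences were fitted with limma 3.58.1 (R 4.3.3), lmFit and eBayes, with Benjamini-Hochberg adjustment over 22218 features and a threshold of 0.05, by genotype and sex over 7 arrays, by genotype in 5 males, and with an interaction. The fits were tested on simulated data. The members and lists were chosen with earlier results of these data known. The rule named up to 4 members of each role with the smallest p, those called or without overlap, and 3 genes of each wider ER list; the other members are given by their difference. ERSE and the other motifs were searched as a description. Alternatives were median centring, quantile normalization, single probes, named genes alone, robust eBayes, the sex or genotype term left out, and each animal left out.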

Additional observations from a re-analysis of the deposited data

Results flagged for a closer look

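Hyou1 was at -0.26 in wild-type male 3, apart from the other wild-type animals, whose nearest value was 0.051. The gap was 0.831 of the range of the 4 animals, above Dixon's 95% limit for 4 samples. Such a gap arises by chance in about 1 in 20 groups, and 32 genes were looked at.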

How the results depend on the processing

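No paired analysis was possible because the genotypes share fewer than 2 replicate numbers. Over all 7 animals, 0 members were called under every alternative run, and 25 to 28 members were below 0 when 1 animal was left out, with medians of -0.29 to -0.14. The features called ranged from 0 to 7, with 7 when either female was left out, which gives the fit of the males. In the males, leaving out 1 animal gave 0 to 2 members called (2 without wild-type male 3), 0 to 55 features (55 without wild-type male 4), and medians of -0.30 to -0.10; quantile normalization gave 4 features in place of 7. For the sexes, leaving out 1 animal gave 0 to 1 member called and 36 to 254 features, and quantile normalization 49 in place of 78. For the interaction, the 16 features became 6 with quantile normalization, 7 with named genes alone and 4 to 77 with a male left out, and the members' median of -0.16 became 0.0098 with quantile normalization and -0.26 to 0.013 with a male left out. The cause was not tested. Small differences changed sign: with 1 animal left out, P4hb (-0.093 to 0.11) and Ppp1r15a (-0.063 to 0.059) over all animals, and in the males Pdia3 (-0.11 to 0.086, and 0.0033 with centring), Derl1 (-0.31 to 0.17), Xbp1 (-0.31 to 0.0085), Ddit3 (-0.13 to 0.29), Ssr1 (-0.28 to 0.014), Chac1 (-0.52 to 0.088) and P4hb (-0.040 to 0.27). Of the named members' values under alternatives, 465 kept direction and side of the threshold, 16 changed sign and 2 newly passed.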

Other observations

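The 2 probes of Ssr1 went different ways between animals. The first read -0.82 in the transgenic female and 0.75 in wild-type male 4, where the second read 0.18 and -0.08. The probes of Sel1l also differed, with -0.25 and 0.19 in the transgenic female and 0.16 and -0.04 in transgenic male 2. On the first of them transgenic male 2 lay above all wild-type males. For Derl1 both probes were lowest in the transgenic female, at -0.45 and -1.03.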
